A study of Mus musculus with 4 samples.

Results

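The 7 genes described here encode simple keratins (*Krt7*, *Krt8*, *Krt18* and *Krt19*), cell adhesion molecules (*Epcam* and *Cdh1*) and a tight junction protein (*Cldn15*), all of them genes of epithelia, and they were followed in sorted stroma of the embryonic mouse gut. They were chosen from 28692 genes in the count tables because earlier results on the same libraries had shown them in cells sorted to be EpCAM negative, so their presence in a given cell group is a description and carries no test. Their level, the share of cells with a unique molecular identifier (UMI, a count of 1 captured RNA molecule) and their detection in the same cell were read in 22094 cells, split into 1320 mesothelial cells (at least 1 *Upk3b* UMI), 1038 mitotic mesenchymal cells (UMIs of both *Ccnb2* and *Cdkn3*), 1325 neural cells (UMIs of at least 2 neural genes) and 18399 other mesenchymal cells. A further 12 cells met the mesothelial and the neural rule together and were left out. Other mesenchyme held the cells that met none of these rules, and no mesenchymal gene was required of them.

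The samples were 2 droplet single-cell libraries from the small intestine (SI) and 2 from the large intestine with cecum (LI) of untreated E12.5 embryos. All embryos were of the EYFP strain on C57BL/6, in which the fluorescent protein is switched on in every tissue, so the sort on YFP selects no lineage, and each of the 2 experiments pooled several embryos. The sort kept live CD45-, Ter119-, CD31-, EpCAM-, Itgb1+, YFP+ cells. Some labels of these samples speak of adult cells and of lamina propria, whereas the titles and the protocol give the embryonic stage. Replicates are thus pools of embryos, p-values measure the spread between 4 libraries, and which library was made with the 3′ and which with the 5′ kit is not stated, so that a kit effect cannot be told apart from the other differences between libraries.

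Simple keratins are the intermediate filament proteins of single-layered epithelia. They assemble as obligate pairs of a type II chain (KRT7 or KRT8) and a type I chain (KRT18 or KRT19), and they anchor to desmosomes. Mesothelium, the sheet that covers the gut, is of mesodermal origin yet carries keratins, whereas fibroblasts and smooth muscle rely mainly on vimentin and desmin. EPCAM and E-cadherin, the product of *Cdh1*, hold epithelial cells together, and EPCAM is also known to act in signalling and proliferation. Claudin 15 forms cation-selective pores between intestinal epithelial cells.

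*Krt8* and *Krt18*, whose products pair with each other, are neighbours in the GRCm38 genome at chr15:101996698-102004482 (minus strand) and chr15:102028180-102032027 (plus strand), 23697 bases apart with no annotated gene between them, and *Krt7* lies on the same chromosome at chr15:101411043-101430313. *Krt19* is at chr11:100140810-100148665, *Epcam* at chr17:87635979-87651129, *Cdh1* at chr8:106603351-106670246 and *Cldn15* at chr5:136966616-136975858. RefSeq promoters on GRCm38.p6 (250 bases before to 50 bases after the start site) were matched for 5 of the 7 genes, the exceptions being *Krt19* and *Cdh1*. The promoters of *Krt7*, *Krt8*, *Krt18* and *Epcam* are shown, and these genes divided into a mesothelial and a mitotic pattern below. That of *Ccnb2*, a cyclin of the G2 to M transition and one of the genes that defined mitotic cells, is shown for comparison. The matched promoter of *Cldn15*, also a mesothelial gene below, held neither of the motifs marked here and is not shown. Capitals mark CACCTG (or its reverse complement CAGGTG), an E-box bound by SNAI and ZEB repressors, and TTTGAA (or its reverse complement TTCAAA), the core of the cell-cycle homology region found in genes of mitosis.
*Krt7*: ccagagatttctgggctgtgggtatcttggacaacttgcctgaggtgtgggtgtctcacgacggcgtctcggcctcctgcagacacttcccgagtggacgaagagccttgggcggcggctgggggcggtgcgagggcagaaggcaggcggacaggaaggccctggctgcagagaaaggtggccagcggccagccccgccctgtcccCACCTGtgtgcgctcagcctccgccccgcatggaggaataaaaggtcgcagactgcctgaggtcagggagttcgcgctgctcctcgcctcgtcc
*Krt8*: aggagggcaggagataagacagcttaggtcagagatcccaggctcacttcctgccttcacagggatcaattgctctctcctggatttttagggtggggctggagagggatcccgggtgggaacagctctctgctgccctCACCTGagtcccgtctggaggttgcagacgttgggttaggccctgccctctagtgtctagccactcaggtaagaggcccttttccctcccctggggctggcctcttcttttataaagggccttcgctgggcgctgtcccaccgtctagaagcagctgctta
*Krt18*: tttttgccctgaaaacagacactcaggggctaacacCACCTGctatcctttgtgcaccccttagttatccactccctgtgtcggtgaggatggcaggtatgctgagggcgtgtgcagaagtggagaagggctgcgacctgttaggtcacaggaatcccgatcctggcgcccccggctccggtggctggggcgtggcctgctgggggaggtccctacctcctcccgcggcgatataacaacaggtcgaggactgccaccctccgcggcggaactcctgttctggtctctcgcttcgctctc
*Epcam*: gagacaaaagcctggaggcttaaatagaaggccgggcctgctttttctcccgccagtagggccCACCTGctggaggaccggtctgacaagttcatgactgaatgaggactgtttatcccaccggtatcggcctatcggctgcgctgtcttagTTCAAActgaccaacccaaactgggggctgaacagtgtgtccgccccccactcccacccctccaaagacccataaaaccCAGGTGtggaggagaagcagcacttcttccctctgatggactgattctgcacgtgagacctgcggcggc
*Ccnb2*: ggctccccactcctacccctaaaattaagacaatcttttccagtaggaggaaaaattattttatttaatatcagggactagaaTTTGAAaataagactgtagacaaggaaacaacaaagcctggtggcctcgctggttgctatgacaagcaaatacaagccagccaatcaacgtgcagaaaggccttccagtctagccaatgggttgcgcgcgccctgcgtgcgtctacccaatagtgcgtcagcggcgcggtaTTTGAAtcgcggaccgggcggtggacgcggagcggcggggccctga

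These windows are chr15:101412153-101412452 (plus strand) for *Krt7*, chr15:102004293-102004592 (minus strand) for *Krt8*, chr15:102027966-102028265 (plus strand) for *Krt18*, chr17:87635729-87636028 (plus strand) for *Epcam* and chr9:70421505-70421804 (minus strand) for *Ccnb2*. Both motifs were chosen with the expression patterns known and were searched on both strands. CACCTG was present in 4 of the 5 matched promoters, those of *Krt7*, *Krt8*, *Krt18* and *Epcam*, and in none of the 4 mitotic genes examined (*Ccnb2*, *Cdkn3*, *Cenpa* and *Cdc20*), against 20.2% of all 32851 promoters. TTTGAA was present in the *Epcam* promoter alone among the 5, at position -98 from the start site, and in 4 of the 4 mitotic genes, against 17.9% of all promoters. A match says that these letters occur in the window and not that a factor binds there.

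Libraries held 5151 to 6881 barcodes and 4603 to 6247 kept cells. LI replicate 1 stood apart in depth, its kept cells having 4219.5 UMIs at the median against 8384 to 8830.5 in the other libraries, and region differences that rest on it are given with and without it. Any pair of libraries shared 8 to 15 barcode sequences. The cells with a *Upk3b* UMI also carried *Upk1b*, *Wt1* and *Podxl* at 199.7, 225 and 226 CPM (a gene's UMIs relative to all UMIs of the group, scaled to the same fixed total in every library, mean of 4 libraries), whereas *Msln*, another marker of mesothelium, had 3 UMIs in all. Neural cells carried the glial factor gene *Sox10* at 97.7 CPM against 0.202 CPM in other mesenchyme. *Sox10* is a gene of the neural rule, so this difference follows from the rule. A list of 19 gut epithelium genes summed to between 6.45 and 11.2 CPM in mesothelial cells and 6.91 and 13.7 CPM in mitotic cells. It summed to between 15.6 and 22.3 CPM in neural cells and 6.85 and 19.3 CPM in other mesenchyme. Of the 19 genes, 11 had a UMI in mesothelial cells, 12 in mitotic cells, 9 in neural cells and 18 in other mesenchyme. *Hnf4a* had none in any group.

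*Krt7*, *Krt19* and *Cldn15* were found almost entirely in mesothelial cells, *Krt8* and *Krt18* were highest there but present in other mesenchyme as well, and *Epcam* was higher per UMI in mesothelial and mitotic cells although most of its UMIs came from other mesenchyme. Between 87.3% and 96.0% of all *Krt7* UMIs in a library came from mesothelial cells, which made up 2.98% to 9.48% of its cells. For *Krt19* this was 88.2% to 97.3% and for *Cldn15* 83.0% to 94.3%. Mesothelial cells held 35.1% to 41.5% of *Krt18* UMIs and other mesenchyme 52.5% to 59.6%. Of *Epcam* UMIs, 63.1% to 73.9% came from other mesenchyme, 9.13% to 20.8% from mitotic cells and 13.0% to 15.7% from mesothelial cells.

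The type II keratin *Krt7* reached 174 and 197 CPM in mesothelial cells of the LI libraries (replicates 1 and 2) and 219 and 275 CPM in those of the SI libraries, and 2.78, 1.39, 0.540 and 0.420 CPM in other mesenchyme of the same libraries. Every mesothelial value lay far above every other value. On the log2(CPM + 1) scale the difference was 6.67 ± 0.91 (SD, n = 4 libraries), and the CPM ratio ran from 62.7 in LI replicate 1 to 653 in SI replicate 2. *Krt19*, a short type I keratin, stood at 237, 267, 280.4 and 272 CPM in mesothelial cells against 3.79, 0.725, 0.513 and 0.332 CPM in other mesenchyme, a difference of 7.03 ± 0.95 (SD, n = 4). Mesothelial *Krt19* thus varied little between libraries, whereas the level outside the mesothelial group was highest in LI replicate 1. *Cldn15* was counted at 55.9 CPM in mesothelial cells of LI replicate 1 and at 131, 117 and 115 CPM in the other libraries, against 1.37, 0.638, 0.459 and 0.354 CPM in other mesenchyme (5.92 ± 0.89).

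The pair *Krt8* and *Krt18* showed a smaller difference and a second, broader source. *Krt18* measured 566, 284, 208 and 176 CPM in mesothelial cells of LI replicates 1 and 2 and SI replicates 1 and 2, and 95.6, 28.4, 24.1 and 8.998 CPM in other mesenchyme (3.26 ± 0.67 on the log2 scale, n = 4). *Krt8* measured 173, 111, 69.6 and 68.0 CPM against 15.1, 6.55, 6.21 and 2.06 CPM (3.78 ± 0.54). Both genes were highest in LI replicate 1 in either group, and the mesothelial and other values did not overlap. Neural cells, which are not known to use keratins, had 2.52, 4.02, 1.93 and 1.06 CPM of *Krt18* and between 0 and 2.94 CPM of *Krt8*, below other mesenchyme in 4 of 4 libraries. The number of *Krt18* UMIs per *Krt8* UMI was 2.55 to 3.27 in mesothelial cells and 3.89 to 6.34 in other mesenchyme, and these ranges did not overlap.

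*Epcam* behaved differently from the keratins. It reached 26.5, 35.2, 24.1 and 30.2 CPM in mesothelial cells, 42.2, 48.4, 24.2 and 16.3 CPM in mitotic mesenchyme, 15.4, 12.9, 8.01 and 5.51 CPM in other mesenchyme and 2.52, 1.67, 3.22 and 2.995 CPM in neural cells (LI replicates 1 and 2, then SI replicates 1 and 2). Mesothelial and mitotic values both lay above those of other mesenchyme within each library, by 1.47 ± 0.62 and 1.53 ± 0.20 on the log2 scale (SD, n = 4). Mesothelial values of SI and LI overlapped, and the test of the mitotic values between regions is given below. *Cdh1*, the classical partner of *Epcam* in epithelium, gave 6 UMIs over all groups, of which 3 were in mesothelial cells, 2 in other mesenchyme and 1 in a mitotic cell described below, and none was counted in neural cells. At this depth a level of *Cdh1* could not be measured.

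**Figure D1:**
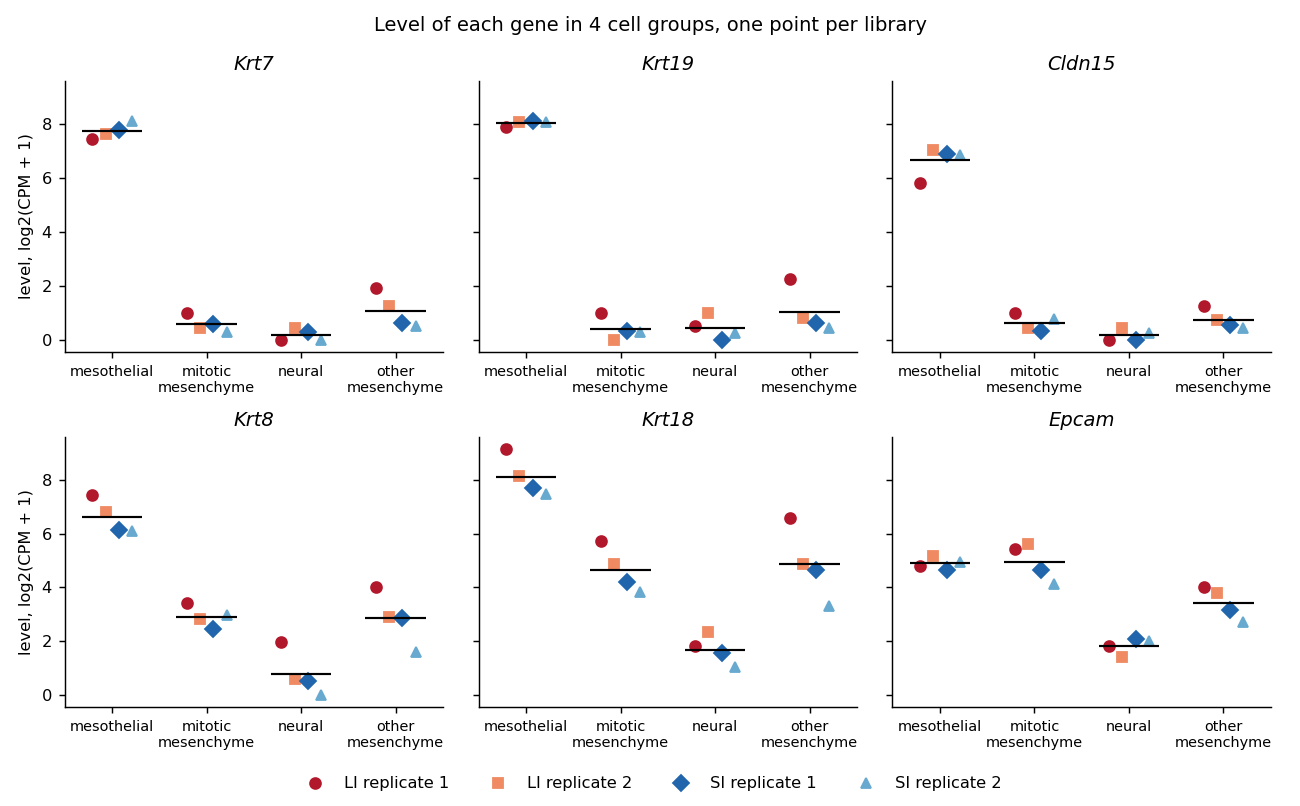
Level of 6 genes in log2(CPM + 1) in mesothelial cells, mitotic mesenchyme, neural cells and other mesenchyme, with 1 point per library and a bar at the mean of the 4 libraries. *Krt7*, *Krt19* and *Cldn15* were high in mesothelial cells only, *Krt8* and *Krt18* were graded, and *Epcam* lay in a similar range in mitotic (16.3 to 48.4 CPM) and mesothelial cells (24.1 to 35.2 CPM).

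Of the 15316 genes with at least 20 UMIs in both groups together, 20.8% had a higher CPM in mesothelial cells than in other mesenchyme in 4 of 4 libraries and 27.8% a lower one. All 6 measurable members were higher, with a median difference of 4.85 against -0.06 over all genes, but the members were selected for this pattern and nothing is read from their count. Mitotic mesenchyme was above other mesenchyme in 4 of 4 libraries for 11% of 15239 genes, and of the members for *Epcam* alone. *Krt7*, *Krt19* and *Cldn15* stayed at or below 1 CPM in mitotic cells.

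The genes whose level followed each member most closely over the 16 sums of 4 groups in 4 libraries (Pearson's r of log2(CPM + 1), among 14445 other genes, as a description) divided the members in the same way. *Upk1b*, *Il17re* and *Muc16* were nearest to both *Krt7* (r = 0.997, 0.994 and 0.993) and *Krt19* (0.995, 0.994 and 0.991). *Upk1b*, *Tm4sf5* and *Il17re* were nearest to *Cldn15* (0.995, 0.995 and 0.994). *Krt8* was nearest to *Pvrl2*, which encodes the adhesion molecule nectin 2 (0.981), *P3h4* (0.969) and *Zcchc3* (0.965), and *Krt18* to *Glmn* (0.967), *Efna1* (0.963) and the polarity gene *Crb2* (0.963). For *Epcam* the nearest were *Htatsf1* (0.926), the receptor tyrosine kinase gene *Erbb2* (0.918) and *Sec14l1* (0.907). Among members, r was 0.996 for *Krt7* with *Krt19*, 0.967 for *Krt8* with *Krt18* and 0.482 for *Krt19* with *Epcam*. The 16 sums share 4 libraries, and the 3 non-mesothelial groups lie close together for the mesothelial genes.

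To compare shares of cells, each cell was thinned to 3000 UMIs, which left out 1380 shallower cells. In mesothelial cells a *Krt7* UMI was then found in 42.6% ± 8.24 (SD, n = 4 libraries, range 37.9 to 54.9%), a *Krt19* UMI in 44.8%, a *Krt18* UMI in 48.9%, a *Krt8* UMI in 22.3%, a *Cldn15* UMI in 24.9% ± 7.15 and an *Epcam* UMI in 6.75% ± 2.37. At full depth the *Krt7* share was 53.7, 68.5, 71.4 and 77.4% (median depths of these cells 4366, 8918, 7537.5 and 8238.5 UMIs). At least 1 of the 4 keratins was detected in 84.8, 80.4, 81.4 and 78.6% of thinned mesothelial cells, and all 4 in 2.76 to 4.95%. The cell with the most *Krt7* held 1.23 to 4.96% of a library's mesothelial *Krt7* UMIs, so detection was broad over these cells.

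In other mesenchyme the shares were 9.21% for *Krt18*, 2.88% ± 1.01 for *Epcam* and 2.04% for *Krt8* (means of 4 libraries). The *Krt18* share ran from 19.99% in LI replicate 1 (95% Wilson interval 18.8 to 21.2%) through 7.98% in LI replicate 2 and 6.00% in SI replicate 1 to 2.86% in SI replicate 2 (2.44 to 3.35%). Neural cells of the same libraries, at the same 3000 UMIs, gave 0.935, 2.62, 0.309 and 0.665%, below other mesenchyme in 4 of 4 libraries. The level of free RNA in other mesenchyme itself was not measured. The *Epcam* share was 4.01, 3.42, 2.22 and 1.87% in other mesenchyme against 0.935, 0.656, 1.23 and 1.55% in neural cells, higher in 4 of 4 libraries, but outside LI the neural intervals (upper limits 3.13 and 3.17%) took in the values of other mesenchyme, so that a difference was not detectable at this depth in SI. Neural cells had median depths of 11046 to 18368.5 UMIs before thinning and other mesenchyme 4105 to 8563. The *Krt7* share in other mesenchyme was 0.779% and 0.519% in the LI libraries and 0.195% and 0.175% in the SI libraries, and the upper limits for neural cells (0.845 to 1.83%) lay above these in each library, so that *Krt7* outside the mesothelial group was not separable from background by its share. Unthinned, the *Krt18* share of other mesenchyme was 24.9, 18.1, 15.0 and 6.85%.

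Keratins that pair as proteins were detected together above the product of their shares, and so were *Krt19* and *Cldn15*, which are not a keratin pair. Among 1231 thinned mesothelial cells, *Krt8* and *Krt18* were both found in 207, where the product of their shares within each library gives 160, a ratio of 1.29. *Krt7* and *Krt19* were both found in 255 against a product of 218 (1.17), and *Krt19* and *Cldn15* in 160 against 128 (1.25). *Epcam* was detected with *Krt7* in 32 cells against 33.7 and with *Krt18* in 45 against 44.0, close to the product of their shares. In 17143 thinned cells of other mesenchyme the *Krt8* and *Krt18* pair was found in 102 cells against a product of 45.1 (2.26), and *Krt7* and *Krt19* in 13 against 0.322. *Krt18* and *Epcam* were both found in 61 of these cells against 52.2, and in 7 mitotic cells against 6.26. Cells that share a library, a cell type and a capture efficiency are not independent, so these ratios are descriptions.

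Within the mesothelial group, members varied with the *Upk3b* count of the cell, the measure that defined the group. Cells with a single *Upk3b* UMI carried 42.1, 45.0 and 46.9 CPM of *Krt7* in LI replicate 2 and the 2 SI libraries, whereas cells with 5 or more carried 229, 251 and 322 CPM. In LI replicate 1 the same groups differed less, at 125 and 222 CPM. *Krt19* and *Cldn15* were ordered likewise (*Krt19* from 25.3, 39.0 and 61.0 CPM to 303, 337 and 320.3 CPM outside LI replicate 1). *Epcam* was 12.6, 15.0 and 4.69 CPM at 1 UMI, 73.7, 24.5 and 48.0 CPM at 2 to 4 and 26.2, 25.8 and 30.1 CPM at 5 or more in these 3 libraries, and 33.2, 23.5 and 27.5 CPM over the 3 classes in LI replicate 1. It was thus lowest at 1 UMI in 3 of 4 libraries and highest at 2 to 4 UMIs in 2 of 4. The 140 cells of LI replicate 1 with a single UMI, against 27 to 45 such cells in each other library, had *Krt18* at 626 CPM against 81.0 to 101 CPM in the other libraries.

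**Figure D2:**
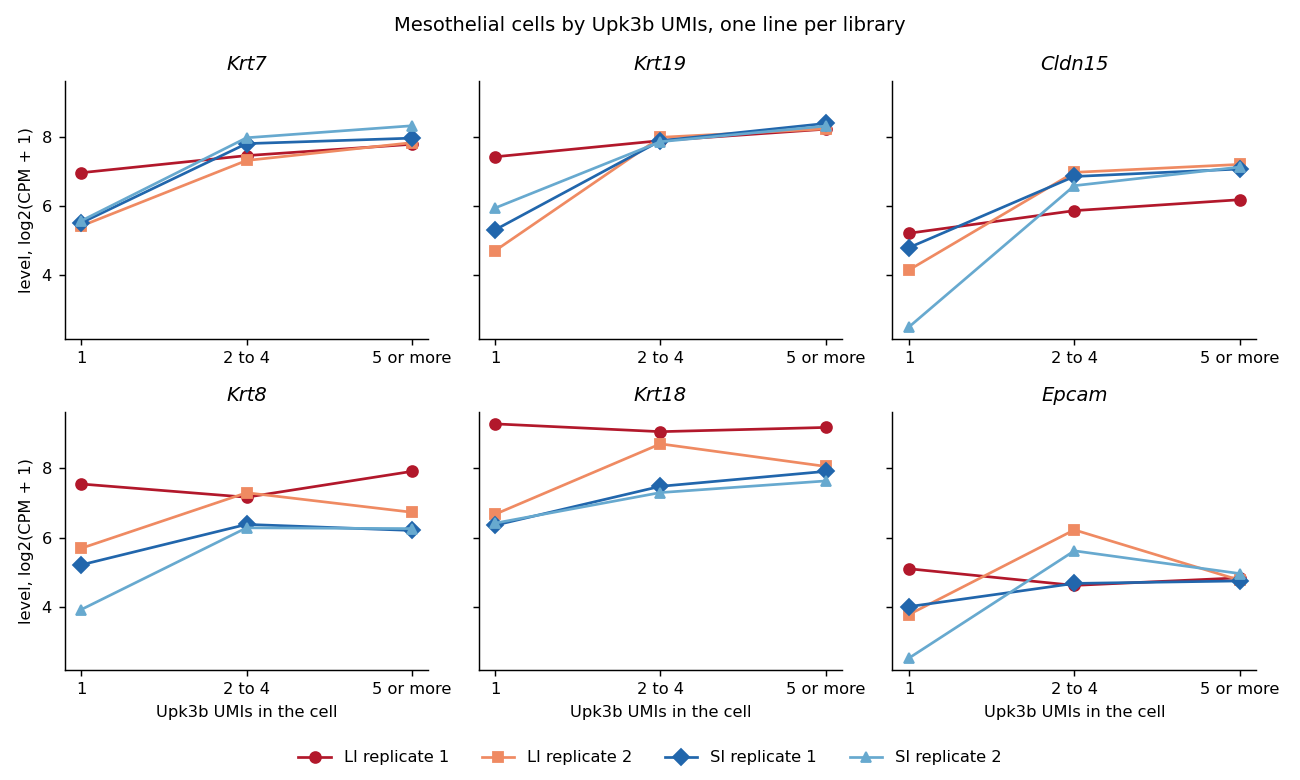
Level of 6 genes in log2(CPM + 1) in mesothelial cells with 1, 2 to 4, and 5 or more *Upk3b* UMIs, with 1 line per library. *Krt7*, *Krt19* and *Cldn15* climbed with *Upk3b* in LI replicate 2 and both SI libraries, and less in LI replicate 1.

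Other epithelial genes were read from lists chosen with earlier results of these data known. Of all genes, 20.8% were higher and 27.8% lower in mesothelial cells in 4 of 4 libraries, and the counts below stand beside these shares. Of 6 other keratins with at least 20 UMIs, 4 (*Krt13*, *Krt14*, *Krt15* and *Krt17*) were higher in mesothelial cells in 4 of 4 libraries and none was lower. *Krt14*, a keratin of basal epithelial layers, stood at 13.3, 8.50, 7.52 and 42.6 CPM, against at most 0.265 CPM in other mesenchyme. Desmosome and plakin genes were higher in 8 of 11, among them *Pkp2* (plakophilin 2, 18.1 against 2.45 CPM, a log2 difference of 2.50 ± 0.34) and *Dsp* (desmoplakin, which ties keratins to the desmosome, 39.5 against 9.24 CPM), and lower in none. Of 8 measurable epithelial regulators and polarity genes 7 were higher, including the polarity gene *Pard6b* (55.4 against 4.74 CPM, 3.26 ± 0.47) and *Spint2*, a protease inhibitor (98.3 against 23.7 CPM). Claudin and tight junction genes were mixed, with 7 of 16 higher (*Cgn*, cingulin, 14.1 against 1.47 CPM) and 4 lower, and so were adherens junction genes, with 4 of 10 higher and 2 lower. Of 11 other intermediate filament genes 1 (*Lmna*) was higher and 5 were lower, among them *Nes* and *Lmnb1*.

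Factors known to repress epithelial genes were lower in the same cells. Of 7 mesenchymal transition factors, 6 were lower in mesothelial cells in 4 of 4 libraries, against 27.8% of all genes, and none was higher. *Zeb2* stood at 6.45, 5.80, 9.89 and 4.73 CPM in mesothelial cells against 74.6, 94.6, 48.8 and 99.98 CPM in other mesenchyme, with no overlap (-3.37 ± 0.85 on the log2 scale, n = 4). *Snai2* averaged 17.4 against 109 CPM (-2.57 ± 0.45) and *Snai1* 11.95 against 43.3 CPM (-1.77 ± 0.30). P-cadherin (*Cdh3*) was at 176 against 53.1 CPM and not E-cadherin, which was at the limit of counting, and the mesenchymal filament gene *Vim* differed by -0.11 ± 0.17. In mitotic mesenchyme 26.1% of all 15239 genes were lower than in other mesenchyme in 4 of 4 libraries. Of 7 measurable epithelial regulators none was higher and 4 (*Klf4*, *Klf5*, *Pard6b* and *Spint2*) were lower, and of 11 desmosome genes 1 was higher and 3 were lower.

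**Figure D3:**
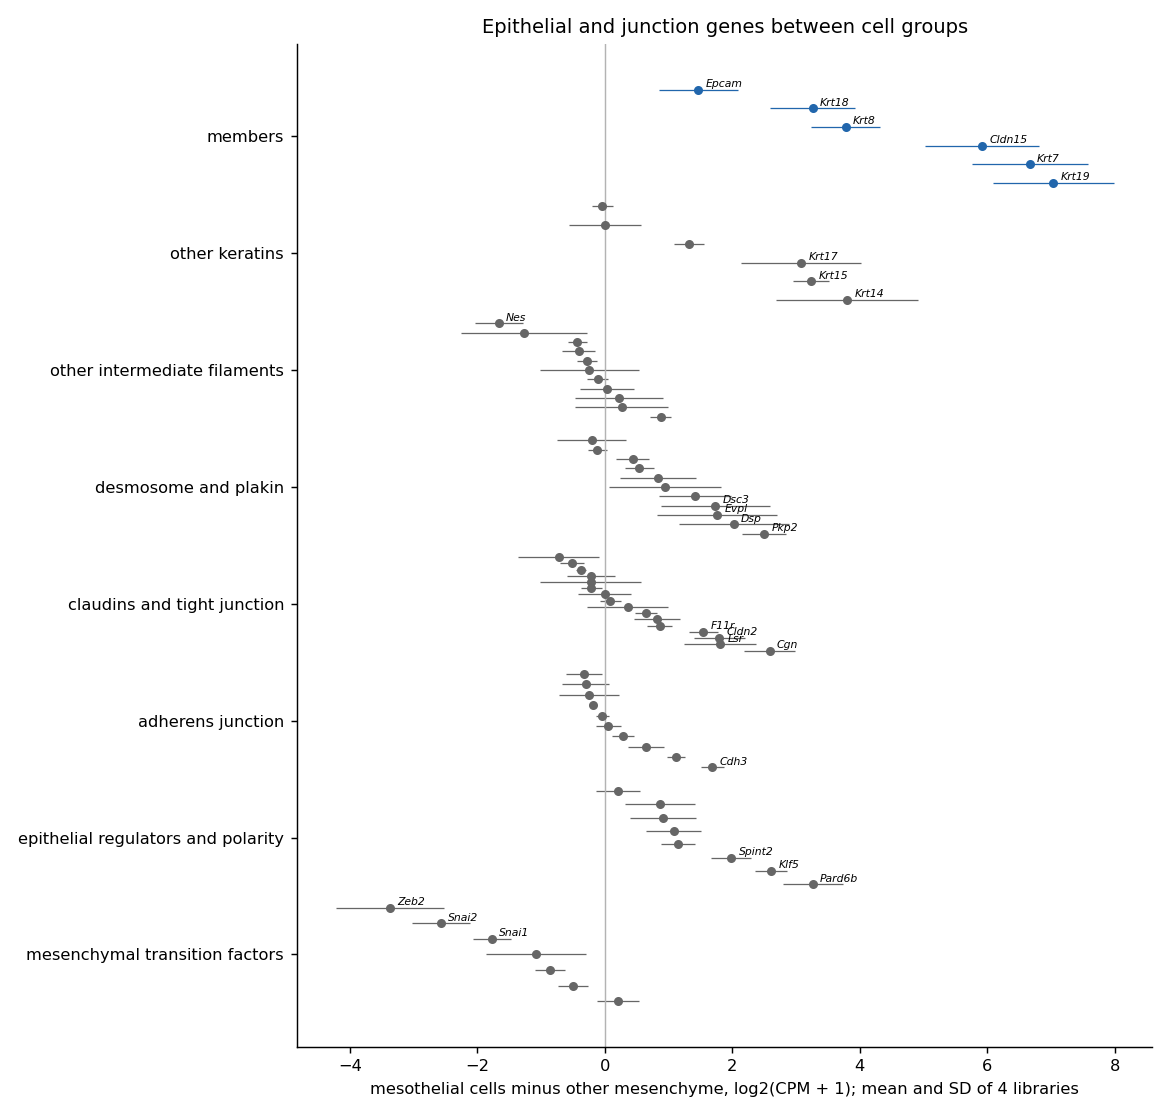
Difference between mesothelial cells and other mesenchyme in log2(CPM + 1), mean and SD of 4 libraries, for the members (blue) and 7 gene lists (grey, genes with at least 20 UMIs), with names for members and for differences beyond 1.5. Keratin, desmosome and epithelial regulator genes lie mostly to the right of 0 and the transition factors to the left.

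*Epcam* was then followed along the cell cycle. In other mesenchyme it was 10.8, 7.72, 4.06 and 2.88 CPM in cells with neither *Ccnb2* nor *Cdkn3* and 31.0, 27.0, 14.2 and 12.02 CPM in cells with either but not both. With both it was 42.2, 48.4, 24.2 and 16.3 CPM, so that the order was the same in 4 of 4 libraries. With 8 mitotic genes that the grouping had not used, the share of thinned mitotic and other mesenchymal cells with an *Epcam* UMI was 2.14, 1.91, 1.63 and 1.19% where none of the 8 was detected and 9.55, 10.2, 4.71 and 5.96% where 6 to 8 were. The 95% Wilson intervals of these classes did not overlap in any library (in SI replicate 1, 1.12 to 2.38% against 3.16 to 6.97%), which covers counting error only. Between them, 1 to 2 and 3 to 5 genes gave similar shares (5.68 and 5.20% in LI replicate 1). *Krt18* did not climb along the same classes: it went from 23.1 to 14.1% in LI replicate 1 and from 3.17 to 0.883% in SI replicate 2.

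The few mesothelial cells with both *Ccnb2* and *Cdkn3* (10, 10, 13 and 8 cells) carried *Epcam* at 148, 208, 181 and 34.0 CPM, against 23.2, 25.0, 15.1 and 29.9 CPM in the remaining mesothelial cells. The value was higher in each library, by little in SI replicate 2, which rests on 4 UMIs. In mitotic neural cells *Epcam* was 13.2, 1.57, 3.36 and 4.63 CPM on 2 to 3 UMIs each, close to the 1.80, 1.70, 3.19 and 2.78 CPM of other neural cells except in LI replicate 1.

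**Figure D4:**
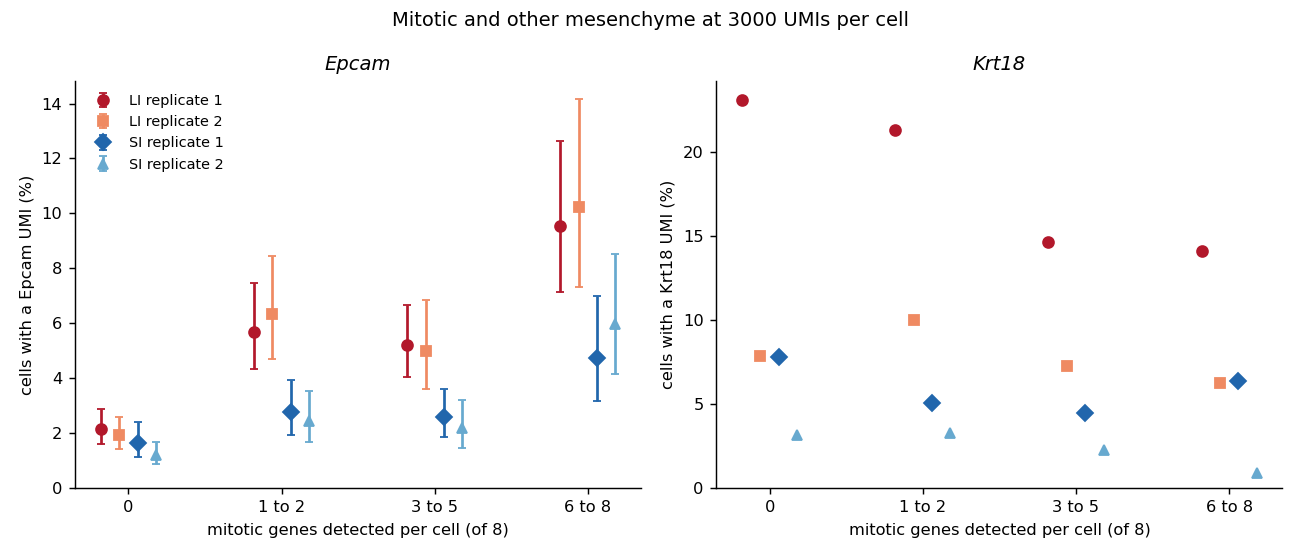
Share of mitotic and other mesenchymal cells with an *Epcam* UMI (left, bars are 95% Wilson intervals) and a *Krt18* UMI (right), at 3000 UMIs per cell, by how many of 8 mitotic genes were detected in the cell, with 1 point per library. *Epcam* rose to 4.71 to 10.2% in the highest class and *Krt18* did not rise.

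The *Epcam*-positive mitotic cells carried gut epithelium genes at a low level. That list summed to 22.2, 13.7, 10.8 and 3.26 CPM with *Epcam* and 11.9, 13.4, 6.04 and 7.77 CPM without it, and at least 2 of its genes were detected in 0 to 1.64% of *Epcam*-positive cells. Mesenchyme genes summed to 1175, 1629.9, 1251 and 1631 CPM with *Epcam* and 1027, 1769.6, 1341 and 1693 CPM without. The median doublet score was 0.0530 against 0.0638 in LI replicate 1 and 0.0462 against 0.0447 in SI replicate 2. *Epcam*-positive cells had passed a sort against the EPCAM protein, and protein was not measured here.

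Cells of other mesenchyme with a UMI of *Upk1b*, *Lrrn4*, *Muc16* or *Podxl* but none of *Upk3b* (203, 154, 81 and 63 cells) carried *Krt7* at 43.6, 9.64, 10.8 and 5.31 CPM, against 1.10, 1.03, 0.330 and 0.358 CPM in the remainder. *Krt18* was also higher in these cells in 4 of 4 libraries, at 262, 55.1, 51.1 and 15.9 CPM. It stayed at 88.8, 27.2, 23.6 and 8.91 CPM in the remainder, nearly as high as in the whole group. Among the remaining cells it was 80.8, 21.3, 15.4 and 6.10 CPM in those with at least 3 smooth muscle genes and 86.4, 29.6, 46.8 and 17.9 CPM in those with none, lower in the former in 4 of 4 libraries. Cells with a *Wt1* UMI had 87.1, 39.2, 40.3 and 15.97 CPM against 88.9, 25.8, 22.7 and 8.44 CPM without, higher in 3 of 4 libraries.

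Single cells with genes of liver entered the counts of *Krt8* and *Krt18*. A mitotic cell of SI replicate 2 held 569 UMIs of *Afp* and 188 of *Alb*, together with 26 of *Krt8*, 36 of *Krt18* and the 1 *Cdh1* UMI of that group. Without it, mitotic cells of this library had 0.928 CPM of *Krt8* in place of 6.90 and 5.10 CPM of *Krt18* in place of 13.3. A cell of other mesenchyme in SI replicate 1 held 336 UMIs of *Afp*, 38 of *Krt8* and 47 of *Krt18*, and leaving it out moved *Krt18* from 24.1 to 22.9 CPM.

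Whether the members differed between SI and LI was tested on UMIs summed per library and cell group. The test was edgeR's quasi-likelihood test on 2 against 2 libraries, without a replicate block and with Benjamini-Hochberg adjustment over all genes tested. In this fit no member passed an adjusted p of 0.05 in any of the 4 groups. Some members passed in fits with a replicate block, which are given with the other alternatives at the end. In mesothelial cells 0 of the 6 members tested were called, with 0.990% of 10810 genes called. In edgeR 3 of the 6 had an unadjusted p under 0.05, as had 1091 of the 10810 genes. By DESeq2 1 of the 6 (*Krt18*, adjusted p = 0.0443) passed, as did 92 of the 10810 genes. *Krt8* was at 68.8 ± 1.12 CPM against 142 ± 43.7 in LI (SD, n = 2 each), with a log2 difference of -0.99 ± 0.25 (SE; edgeR, adjusted p = 0.0989). *Krt18* was at 192 ± 22.7 CPM in SI against 425 ± 199.4 in LI (-1.09 ± 0.29; edgeR, adjusted p = 0.132). Both LI values of these genes lay above both SI values, as for 24.5% of all genes, and the reverse held for *Krt7* (247 ± 39.2 against 186 ± 16.2 CPM, 0.47 ± 0.20; edgeR, adjusted p = 0.43) and *Krt19* (0.20 ± 0.18), as for 16.6% of all genes. *Epcam* (-0.13 ± 0.27) and *Cldn15* (0.39 ± 0.30) overlapped between regions. Without LI replicate 2, which leaves LI with LI replicate 1, *Krt8* (-1.31; edgeR, adjusted p = 3.8e-08), *Krt18* (-1.53; 2e-14) and *Cldn15* (1.07; 1.6e-04) passed, and *Krt8* (0.00163) and *Krt18* (3.9e-05) also did when genes with low counts were kept. Without LI replicate 1 the differences were -0.61 for *Krt8* (edgeR, adjusted p = 0.138), -0.48 for *Krt18* (0.234) and -0.10 for *Cldn15* (0.926).

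In mitotic mesenchyme 3 members could be tested and 0 were called, with 1.46% of 10809 genes called. Of the 3 members, 2 had an unadjusted p under 0.05 in edgeR, as had 1140 of the 10809 genes. By DESeq2 0 passed, with 123 of the 10809 genes called. *Epcam* was at 20.3 CPM in SI against 45.3 in LI, a log2 difference of -1.10 ± 0.26 (edgeR, adjusted p = 0.0619), and *Krt18* at 15.3 ± 2.78 against 40.2 ± 16.7 CPM (-1.23 ± 0.32; edgeR, adjusted p = 0.0977). LI values of both lay above SI values, as for 26.5% of all genes. *Krt8* differed by -0.27 ± 0.44 with, and by -1.37 ± 0.61 without, the liver-gene cell of SI replicate 2 (edgeR, adjusted p = 0.911 and 0.443). Without that cell *Krt18* differed by -1.69 ± 0.45 (edgeR, adjusted p = 0.092). *Epcam* passed without LI replicate 1 (-1.19; edgeR, adjusted p = 0.0161) or SI replicate 1 (-1.40; 0.0337), and *Krt18* without LI replicate 2 (-1.71; 0.00152) or SI replicate 1 (-1.45; 0.039). Without LI replicate 1 *Krt18* differed by -0.82 (edgeR, adjusted p = 0.199) and *Krt8* by -0.01 (0.995). With low-count genes kept, *Epcam* (edgeR, adjusted p = 0.00287) and *Krt18* (0.0015) passed and *Krt8* (0.894) did not. Without SI replicate 2 *Epcam* differed by -0.83 (edgeR, adjusted p = 0.665). In neural cells *Krt18* (-1.28 ± 0.53) and *Epcam* (0.61 ± 0.49) were tested and 0 were called, with 0.297% of 11457 genes called. In edgeR 1 of these members (*Krt18*) had an unadjusted p under 0.05, as had 884 of the 11457 genes, and 0 were called by DESeq2.

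In other mesenchyme 0 of the 6 members tested were called, with 2.61% of 14283 genes called. In edgeR 4 of the 6 had an unadjusted p under 0.05, as had 2358 of the 14283 genes. By DESeq2 1 passed (*Krt7*, adjusted p = 0.0454), as did 725 of the 14283 genes. Both LI values lay above both SI values for 6 of the 6, as for 38.7% of all genes, and the members' median log2 difference was -1.49 against 0.01 over all genes. The largest were *Krt19* (-2.24 ± 0.78; edgeR, adjusted p = 0.222), *Krt7* (-1.95 ± 0.47; 0.0917) and *Krt18* (-1.75 ± 0.64; 0.244), followed by *Krt8* (-1.23 ± 0.58), *Cldn15* (-1.11 ± 0.51) and *Epcam* (-0.90 ± 0.25; 0.144). The markers *Upk1b* (2.60 and 0.841 CPM in LI, 0.162 and 0.265 in SI) and *Podxl* (8.82 and 4.001 against 2.13 and 1.26 CPM) were ordered in the same way in this group. The full mesothelium list was not, since 10 of its 12 genes were detected and they summed to 79.8 and 99.1 CPM in LI against 374 and 302 CPM in SI, of which *Aldh1a2* made up 345 and 274 CPM in SI. *Upk3b*, absent here by the rule, and *Msln* were at 0, and with the cells carrying *Upk1b*, *Lrrn4*, *Muc16* or *Podxl* left out the difference was -1.45 for *Krt7* and -1.45 for *Krt19*.

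Leaving out a library leaves 1 region with a single library, so effect sizes alone are given. Without LI replicate 2 the log2 differences were -2.40 for *Krt7*, -1.74 for *Krt8*, -2.40 for *Krt18*, -3.04 for *Krt19* and -1.05 for *Epcam*. Without SI replicate 1 they were -2.14, -2.25, -2.66, -2.59 and -1.21 for the same 5 genes. Without SI replicate 2 they were -1.19 for *Krt18* and -1.93 for *Krt19*. LI replicate 1 had the highest level of each gene, and without it every difference was smaller than with all libraries. They were then -0.60 for *Krt19*, -0.59 for *Krt18*, -0.48 for *Krt8*, -0.47 for *Cldn15*, -1.35 for *Krt7* and -0.75 for *Epcam*. With low-count genes kept, *Krt7*, *Krt8*, *Krt18*, *Krt19* and *Epcam* passed (edgeR, adjusted p from 4.7e-13 to 0.00424), as did 1541 of the 19817 genes then tested.

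The effect of region on *Krt7* and *Krt19* differed between mesothelial cells and other mesenchyme. In a fit with library as a block, the SI over LI difference in mesothelial cells minus that in other mesenchyme was 2.33 ± 0.32 for *Krt7* (log2; edgeR, adjusted p = 3.3e-05) and 2.25 ± 0.48 for *Krt19* (edgeR, adjusted p = 0.00496). These 2 of the 6 members tested were called, with 4.62% of 13623 genes called, 229 of them higher and 400 lower (92 and 74 by DESeq2). *Cldn15* (1.39 ± 0.48), *Epcam* (0.73 ± 0.28), *Krt18* (0.58 ± 0.22) and *Krt8* (0.20 ± 0.27) were not. These values depended on the filter and on single libraries. With low-count genes kept, *Krt18* (0.56, edgeR adjusted p = 6.8e-04) and *Cldn15* (1.37, edgeR adjusted p = 0.00427) passed. Without LI replicate 1 they were 0.43, 0.48, 0.25 and -0.00897, none passing, and without SI replicate 2 they were 1.22, 0.34, 0.07 and -0.41, none passing. Without LI replicate 2, *Cldn15* (2.73, edgeR adjusted p = 6.2e-08), *Epcam* (1.13, adjusted p = 0.0121) and *Krt18* (0.98, adjusted p = 2e-09) passed, and without SI replicate 1 all 4 did (1.56, 1.19, 1.24 and 1.13; edgeR, adjusted p from 9.9e-13 to 0.0117). The *Krt19* result rests on LI replicate 1: without it the difference was 0.79 (edgeR, adjusted p = 0.471), and without LI replicate 2 it was 3.33 (2.2e-26). For *Krt7* it was 1.82 (edgeR, adjusted p = 5.5e-06) without LI replicate 1 and 2.98 (3.8e-18) without LI replicate 2. By DESeq2 the adjusted p was 0.0433 for *Krt7* and 0.81 for *Krt19*, and over all alternatives it ran from 3.8e-18 to 0.0433 and from 2.2e-26 to 0.81. With the cells of other mesenchyme that carried *Upk1b*, *Lrrn4*, *Muc16* or *Podxl* left out, an alternative chosen after seeing the data, the differences were 1.89 for *Krt7* (9.6e-05) and 1.55 for *Krt19* (0.0076). Since levels of both genes in other mesenchyme were at or below 3.79 CPM, the size of these differences depends on few UMIs, 150 for *Krt7* and 145 for *Krt19* over the 4 libraries.

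**Figure D5:**
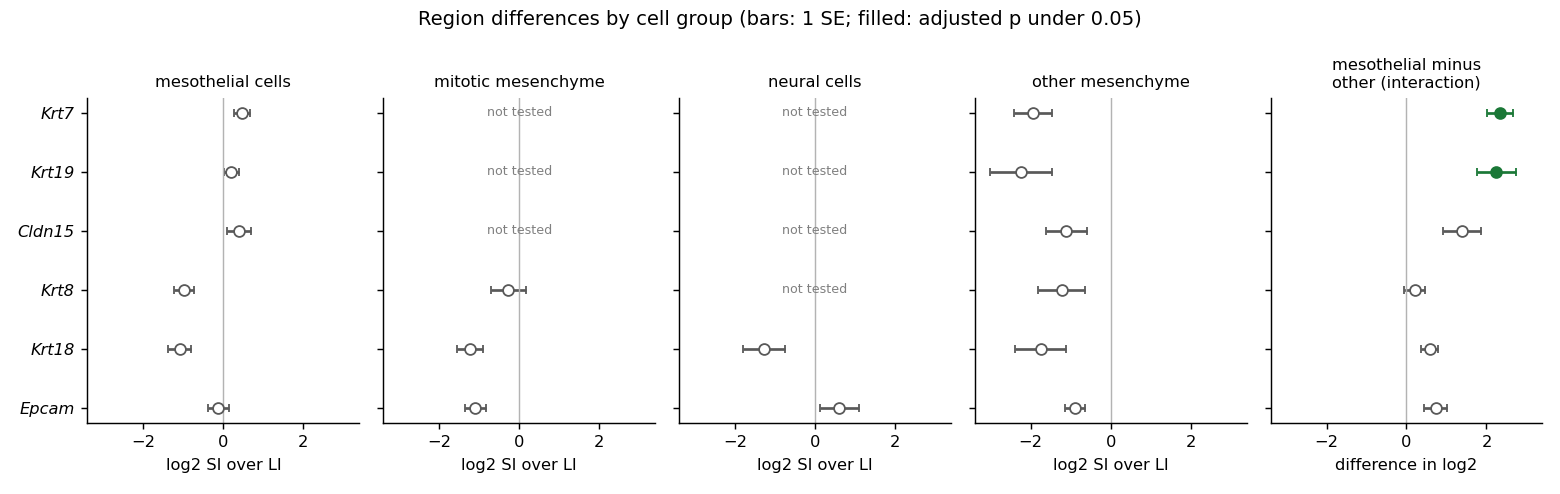
Log2 difference of SI over LI with its SE for 6 genes in each of the 4 cell groups, and, at right, the difference of that difference between mesothelial cells and other mesenchyme. Filled points passed an adjusted p of 0.05 in edgeR, which held for *Krt7* and *Krt19* in the rightmost panel only.

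Shares of thinned cells were compared between regions with an exact two-sided permutation test, which cannot give a p below 0.333 with 2 against 2 libraries, so it could call no difference whatever its size. *Epcam* was detected in 13.0% ± 0.387 of mitotic cells in LI and 5.21% ± 1.39 in SI (n = 2 each, exact permutation p = 0.333), with no overlap, and in 8.37% ± 2.30 of mesothelial cells in LI against 5.13% ± 1.04 in SI.

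Few genes of the lists were called between regions. N-cadherin (*Cdh2*) was lower in SI in mitotic cells (-1.27 ± 0.23; edgeR, adjusted p = 0.0151) and other mesenchyme (-1.28 ± 0.18; 0.0168), desmin (*Des*) in mitotic cells (-1.95 ± 0.33), and *Cldn10* (-2.09 ± 0.40) and the epithelial factor *Klf5* (-1.51 ± 0.27) in other mesenchyme. In neural cells the neurofilament genes *Nefl* (1.66 ± 0.25) and *Nefm* (1.46 ± 0.19) were higher in SI and *Cdh11* (-2.08 ± 0.26) and *Prrx1* (-3.28 ± 0.46) lower. No gene of the other keratin list was called in any group. In the comparison of the region effect between mesothelial cells and other mesenchyme, *Dsp* (1.26 ± 0.27), *Des* (1.15 ± 0.15) and *Nefm* (1.77 ± 0.39) were called in the direction of *Krt7*, and *Vim* (-0.42 ± 0.09), *Mllt4* (-0.54 ± 0.13) and *Klf4* (-0.49 ± 0.12) in the other.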

How the data were processed

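The authors deposited raw UMI counts per gene and cell for 4 libraries, which their processing notes credit to Cell Ranger 3.1.0 on mm10, with Seurat 3 downstream. The kit used for each library is not given in the sources used here. Cells with at least 1000 genes and under 10% mitochondrial UMIs were kept. Scrublet (scanpy 1.11.5) marked 0 to 6 cells per library at its automatic threshold, so the highest-scoring cells were removed at 0.8% per 1000 cells (1094 cells). Counts were summed per library and cell group and tested with edgeR 4.0.16 in R 4.3.3 (quasi-likelihood, TMM factors, filterByExpr, Benjamini-Hochberg adjustment), each cell group alone. The comparison of region effects took library as a block. Cell groups were compared without a test. CPM divides by the UMIs of the group, with no length scaling, so levels were not compared between genes. Wilson intervals at 95% cover counting error only.

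Members, gene lists, motifs and tests were chosen with earlier results of these data known. Named genes are the members, the 3 genes most correlated with each (at least 50 UMIs), and list genes called between regions, apart from those left out below. Other list genes are examples chosen after their values were seen. On simulated data with 200 changed genes, the step recovered 22% of 2-fold and 85% of 4-fold changes between regions in mesothelial cells (10810 genes), and 3% and 46% for the difference of region effects (13623 genes). Alternatives were DESeq2 1.42.0, RLE factors, no filter, a replicate block, thinned sums, no doublet removal, other group thresholds and each library left out. Replicates differed by more than sampling noise (chi-square per degree of freedom 2.95 to 51.5). Results for some marker and list genes, including 1 called between regions in 3 cell groups, are not reported here.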

Additional observations from a re-analysis of the deposited data

Results flagged for a closer look

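The region effect differed between mesothelial cells and other mesenchyme, by the test of that difference itself, for *Krt7* (2.33 on the log2 scale) and *Krt19* (2.25). *Krt7* was higher in SI in mesothelial cells and higher in LI in other mesenchyme, with no overlap of the libraries in either. The same held for 16.6% of all genes tested in mesothelial cells and for 38.7% in other mesenchyme. Neither regional difference passed alone (edgeR, adjusted p = 0.43 and 0.0917), and the share of other mesenchymal cells with *Krt7* was not separable from background. For *Krt19* the difference was 0.79 without LI replicate 1 (edgeR, adjusted p = 0.471, against a range of 2.2e-26 to 0.81 over the alternatives).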

How the results depend on the processing

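Between cell groups, 90 of 90 values stayed within the SD of the 4 libraries around the main value in the alternatives run. Whether they kept their direction was not counted. Between regions, 205 of 261 member values kept direction and side of the threshold, 48 newly passed, 2 no longer passed and 6 changed sign. The sign changes were *Epcam* in mesothelial cells (-0.13, from -0.31 to 0.0323 with a library left out, positive without LI replicate 2 and at 0.03 without SI replicate 1, and 0.00676 with no doublet removal), *Cldn15* there (from -0.10 without LI replicate 1 to 1.07 without LI replicate 2) and the *Krt8* difference of region effects (-0.00897 without LI replicate 1, and from -0.41 without SI replicate 2 to 1.13 without SI replicate 1).

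Counts of called genes were 107, 158, 34 and 373 in mesothelial, mitotic, neural and other cells and 629 for the difference of region effects. They became 403, 478, 333 and 1541 in the 4 groups without the filter. With DESeq2 they were 91 in neural and 725 in other cells and 166 for the difference, and with thinned sums 75 in mitotic cells and 394 for the difference. Leaving out each library gave 104 to 1161, 144 to 589, 65 to 1485, 574 to 1592 and 318 to 760. A region left with 1 library is assumed to vary like the other. The cause was not tested.

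With a replicate block the counts were 421, 326, 383 and 1606, and *Krt8* (-0.97) and *Krt18* (-1.02) in mesothelial cells, *Krt18* (-1.26) and *Epcam* (-1.14) in mitotic cells and *Krt7*, *Krt8*, *Krt18*, *Krt19* and *Epcam* in other mesenchyme passed (edgeR, adjusted p from 1.8e-04 to 0.0192). The labels do not say that a number marks a shared experiment, and with 2 pairs the correlations of deviations (0.17 to 0.38) do not settle it.

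Thinned to 2000 UMIs, mesothelial cells with *Krt8* and *Krt18* fell to 9.33% and with *Krt7* and *Krt19* to 14.5%. Leaving out libraries gave 12.9 to 16.7% and 19.6 to 24.5%, 5.61 to 11.3% for *Krt18* and 2.50 to 3.22% for *Epcam* in other mesenchyme, and 7.71 to 10.7% for *Epcam* in mitotic cells. Depth limits *Cdh1* and low keratin levels outside mesothelium.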
